A study of Homo sapiens with 4 samples.

Results

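Genes of the short arm of chromosome 7 (7p), up to 56 Mb, are described here in CD133+ and CD133- clone cells of SW620, a human colorectal adenocarcinoma cell line derived from a lymph node metastasis. CD133 is the surface protein encoded by PROM1 and was the antigen used for sorting. Members were chosen by position, as genes of chromosome 7 with a GRCh38 start below 56 Mb, and by level, as genes in the top 80% by mean signal. The arm itself was picked on the difference between CD133+ and CD133- arrays in these data, so that difference is given as a description and no test over the list is made. Of 300 genes of the region with a probe set naming 1 gene, 240 passed the level filter and 60 did not. Another 22 of the 240 were left out by name (symbols starting HOXA, NDUF, PSM, MRP or IGFBP, and genes such as AGR2, MAD1L1 and EGFR), which leaves 218 members among the 15821 genes tested. A further gene, PRSS3P2, is listed at 0.77 Mb of chromosome 7 in the RefSeq table but among rows that restart the coordinate count after the chromosome's end, beside T cell receptor beta segments, so it was not taken as a 7p gene.

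The study deposited 4 Affymetrix arrays, 2 of a CD133+ clone and 2 of a CD133- clone. Per the labels, SW620 cells were sorted with magnetic beads for CD133, individual cells were plated to give clones, kept in L-15 medium with serum, and the grown clones passed the CD133 beads once more ahead of RNA extraction. All cells derive from SW620, though the genome of each clone was not measured. No drug or other treatment is named for either group. Each group is 1 clone, so CD133 status and clone cannot be told apart. The labels do not say whether replicate arrays stem from different cultures, so p-values measure the spread between these arrays only, which may be technical. In such pooled RNA, fewer cells expressing a gene and less of its RNA per cell cannot be told apart. Values are log2 signals, and differences are CD133+ minus CD133- means.

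A chromosome arm carries genes with unrelated functions whose RNA levels can still move together when the copy number of the arm, or of a part of it, differs between cells. Gain of chromosome 7 is a common change in colorectal carcinomas. The arrays measured RNA, so the part of DNA copy number in these values was not tested. 7p carries genes of general use, such as ACTB for beta-actin and CYCS for cytochrome c, next to genes with narrow expression such as developmental transcription factors and hormone receptors.

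The sorted antigen matched the labels: PROM1 had a signal between 8.46 and 8.73 on the CD133+ arrays and between 3.31 and 3.35 on the CD133- arrays. Of 9 colon epithelial markers, 8 lay above the level filter, with EPCAM between 11.95 and 12.31, while KRT20 was below it. The 3 measured leukocyte markers lay between 3.55 and 4.13 on all arrays, near the lowest level tested (3.753), and their summed log2 signal was 11.83 to 11.85 on the CD133+ and 11.33 to 11.63 on the CD133- arrays. Endothelial markers summed to 13.37 to 14.34 and 12.84 to 13.56 over 3 genes. Fibroblast markers summed to 21.51 to 21.53 and 21.32 to 21.95 over 4 genes. By mean signal over the arrays, COL1A1 (6.98) and LUM (6.42) lay above the epithelial markers CDX1 (6.20) and CDX2 (6.22). DCN (4.35) and COL1A2 (3.82) lay below them, as did the endothelial marker PECAM1 (5.70). Array CD133- replicate 1 stood highest in the upper quartile of its deposited signals (6.90, with 6.60 to 6.71 elsewhere), and the calls lost without it are counted below.

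The 7p genes had a median log2 difference of 0.33, or 1.26-fold higher in CD133+ cells, with quartiles at 0.14 and 0.57. The median was 0.058 over all genes tested and 0.056 over the 503 genes of the rest of chromosome 7. A positive difference was measured in 188 of the 218 7p genes (86.2%), against 58.5% of all genes and 57.1% of the rest of chromosome 7. More than 1.5-fold higher signal was measured for 52 of the 7p genes (23.9%), where 3.98% of all genes tested passed that fold, and 5 of them were at least 2-fold higher. In limma across all genes, 39 of the 7p genes were called higher at an adjusted p under 0.05 (17.9%, where 1.31% of all genes were called higher), and 0 were called lower (where 2.34% of all genes were called lower). At an unadjusted p under 0.05 there were 100 higher and 4 lower 7p genes, where 10.8% of all genes were higher and 9.83% lower. Both CD133+ arrays lay above both CD133- arrays in 140 of the 218 genes (64.2%), where 30.4% of all genes did, and both lay below in 9 (4.13%), where 21.2% of all genes did. These shares restate the contrast on which the arm was picked.

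On the 4 arrays, the median signal of the 7p genes was 7.25 and 7.36 for CD133+ and 6.88 and 6.81 for CD133-. It exceeded the median of all genes on the same array by 0.49 and 0.52 in the CD133+ clone and by 0.15 and 0.025 in the CD133- clone. The 2 groups do not overlap in this value, and CD133- replicate 1 is the nearer of the CD133- arrays to the CD133+ arrays. For the rest of chromosome 7 the same excess was 0.093 and 0.052 in CD133+ cells against 0.011 and 0.065 in CD133- cells, which overlap. Between arrays of different clones the median gene-by-gene difference of the 7p genes was 0.34 to 0.40 in the 4 possible pairs. Between the 2 arrays of 1 clone it was -0.014 for CD133+ and 0.0021 for CD133-.

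**Figure D1:**
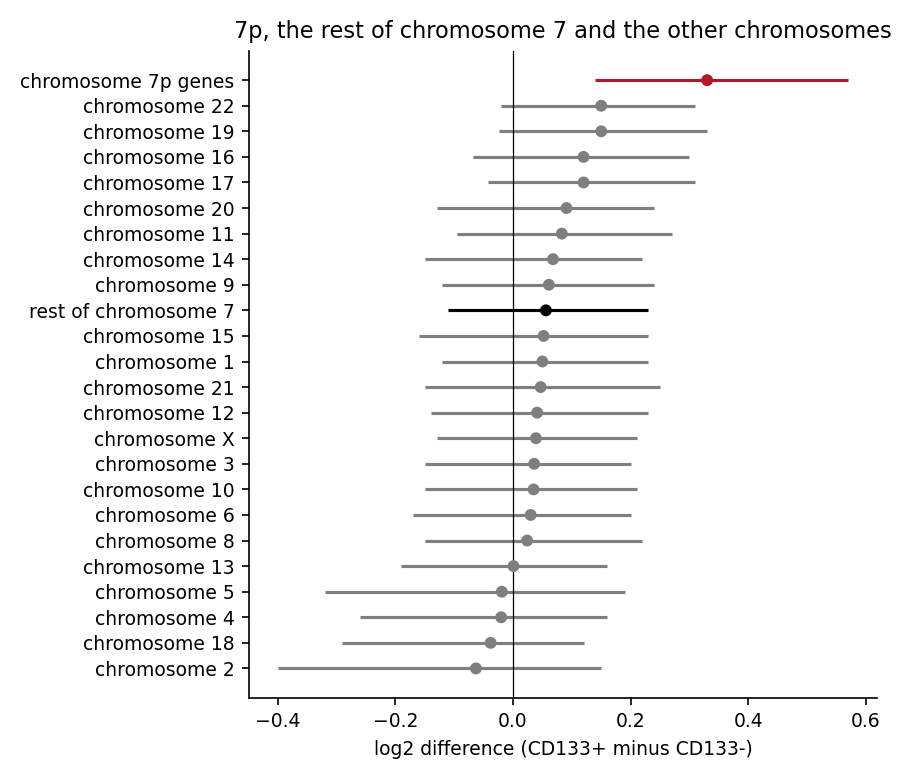
Median (point) and quartiles (line) of the log2 difference, CD133+ minus CD133-, over the genes of chromosome 7p, of the rest of chromosome 7 and of 22 other chromosomes. The 7p median lies at 0.33, and the other chromosomes lie between -0.063 (chromosome 2) and 0.15 (chromosomes 19 and 22).

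The count of calls depended on the arrays and the scaling. Without CD133- replicate 1 the 7p genes called higher were 10, all of them among the 39 (0.284% of all genes were then called higher), and without CD133- replicate 2 they were 20, of which 17 were among the 39 (0.815% of all genes). Without either CD133+ array they were 39 and 38. In the values as deposited 16 were called (0.556% of all genes), and with each array centred on its median 11 (0.329%). With the mean of all probe sets in place of the brightest, 10 of 210 members then tested were called (0.468%). In a limma fit with 1 prior variance for all levels 0 were called (90 at an unadjusted p under 0.05). The median over all genes was 0.058 after quantile normalization, 0.028 as deposited and -0.051 with centred arrays. The 7p median exceeded it by 0.27 in each of these scalings, and positive 7p genes numbered 188, 198 and 172. Without 1 array at a time the 7p median lay between 0.34 and 0.39. Genes called higher in the full data and without any 1 array were 9 in number: EIF3B, FKBP14, GIRGL, GRB10, MPLKIP, TNRC18, YKT6, ZDHHC4 and ZFAND2A. Of the 39 calls, 23 were lost in the values as deposited, 28 with centred arrays and 30 with the mean of probe sets, where 19 of the differences also shrank by more than 1.5 times. GIRGL, MPLKIP and ZFAND2A kept the call in each of these settings, without any 1 array, under both other level filters and in the robust fit, though not in the fit with 1 prior variance, where none of the 39 did. Leaving out CD133+ replicate 1 ended 6 calls (GET4, RBAK, NUP42, PLEKHA8, DPY19L1 and LANCL2), and leaving out CD133+ replicate 2 ended 9 (FSCN1, COXFA4, MALSU1, CYCS, PLEKHA8, KBTBD2, RP9, NUDCD3 and LANCL2). Leaving out CD133- replicate 1 ended 29 and CD133- replicate 2 ended 22, as given with the groups of genes below.

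Along the arm the difference was present in every stretch. The 218 genes were taken in order of their start in runs of 20, the last with 18. All 11 runs had a positive median, from 0.19 to 0.55, and 14 to 20 genes of a run were positive. The highest median, 0.55, was that of the run from SLC29A4 at 5.3 Mb to LINC03016 at 7.3 Mb, which holds ACTB, RAC1 and TNRC18. The next was 0.48, from URGCP at 43.9 Mb to NACAD at 45.1 Mb, which holds YKT6, TMED4 and PPIA, and there all 20 genes were positive. All 20 were also positive from ANLN at 36.4 Mb to BLVRA at 43.8 Mb, with a median of 0.40. Lower medians of 0.19 were found from ITPRID1 at 31.5 Mb to MATCAP2 at 36.3 Mb and in the final run, from TBRG4 at 45.1 Mb to NIPSNAP2 at 55.96 Mb. Called genes lay in every run, between 2 and 5 in each.

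Beyond 56 Mb the first run of 20 genes, from PSPH at 56.01 Mb to LINC00174 at 66.4 Mb, had a median of -0.068 with 8 positive genes. The limit lies short of the centromere, so the first genes beyond it, such as PSPH, CCT6A and SUMF2, are still on the short arm and 56 Mb is not the arm's end. The nearest members inside the limit were LANCL2 at 0.44, VOPP1 at 0.15 and NIPSNAP2 at 0.31. The nearest genes outside it were PSPH at 0.075, CCT6A at 0.18 and SUMF2 at -3.8e-05. In the rest of chromosome 7 the run medians ranged from -0.10 to 0.31 over 25 runs, and 17 were positive. The highest of them, 0.31 and 0.26, were those of neighbouring runs from GPC2 at 100.2 Mb to ZNHIT1 at 101.2 Mb, where 17 of 20 genes were positive in both. These reach into the range of the 7p runs.

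**Figure D2:**
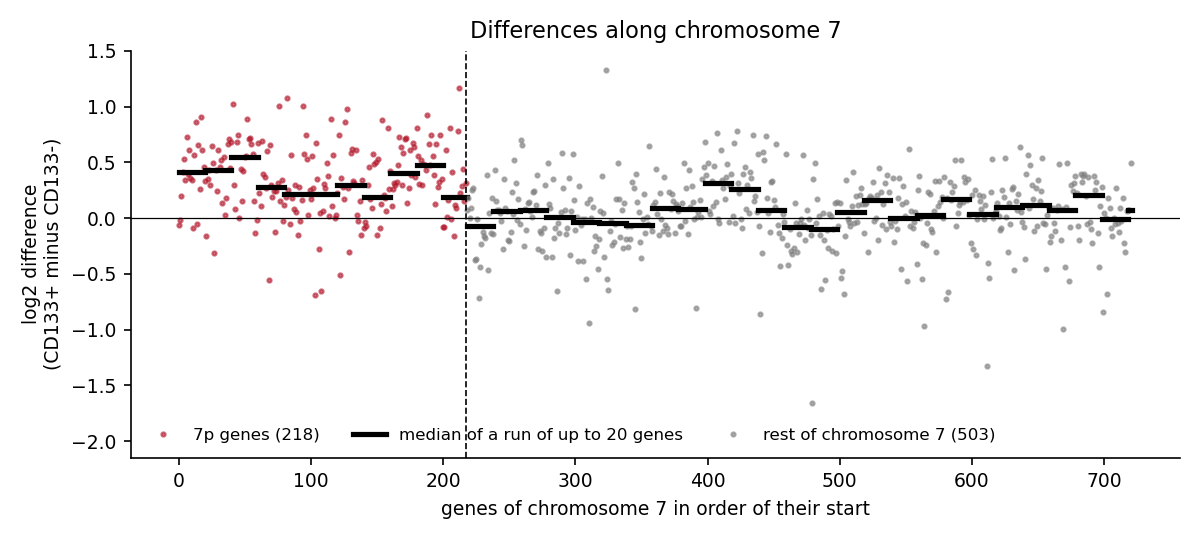
Log2 difference, CD133+ minus CD133-, of each gene of chromosome 7 in order of its start, with the 218 genes of 7p left of the dashed line and 503 genes of the rest of the chromosome right of it. Black bars are medians of runs of up to 20 genes: all 11 runs of 7p lie at 0.19 or above, and the first run right of the line lies at -0.068.

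The difference was smallest for the dimmest 7p genes, though it did not rise steadily with the signal level. When the 218 genes were split into 3 classes by mean signal, at 5.58 and 8.31, the median of the dim class was 0.12 and 48 of its 73 genes were positive. The middle class had 0.53 (68 of 72 positive) and the bright class 0.44 (72 of 73 positive). Limma called 0, 8 and 31 genes higher in these classes, and 4, 40 and 56 passed an unadjusted p under 0.05. Of the genes outside 7p in the same classes 0.259%, 0.949% and 2.10% were called higher. At the unadjusted threshold 301 of 5411, 734 of 5796 and 555 of 4374 of these other genes were higher. Genes outside 7p split at the same levels had medians of 0.09, 0.066 and 0.012. The dim class of 7p lay close to other dim genes, with 65.8% positive against 64.6%. The median standard error was 0.20 in the dim and middle classes and 0.11 in the bright class, so calls were also easier to reach for bright genes. Just above the level limit, LINC03007 was at 0.046, IL6-AS1 at -0.025 and AMPH at 0.32, and just below it GPNMB was at 0.10, NPSR1-AS1 at 0.32 and SCIN at -0.099. The 58 genes of the arm below the limit, other than those left out by name, had a median difference of 0.0034, and 29 of them were positive.

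**Figure D3:**
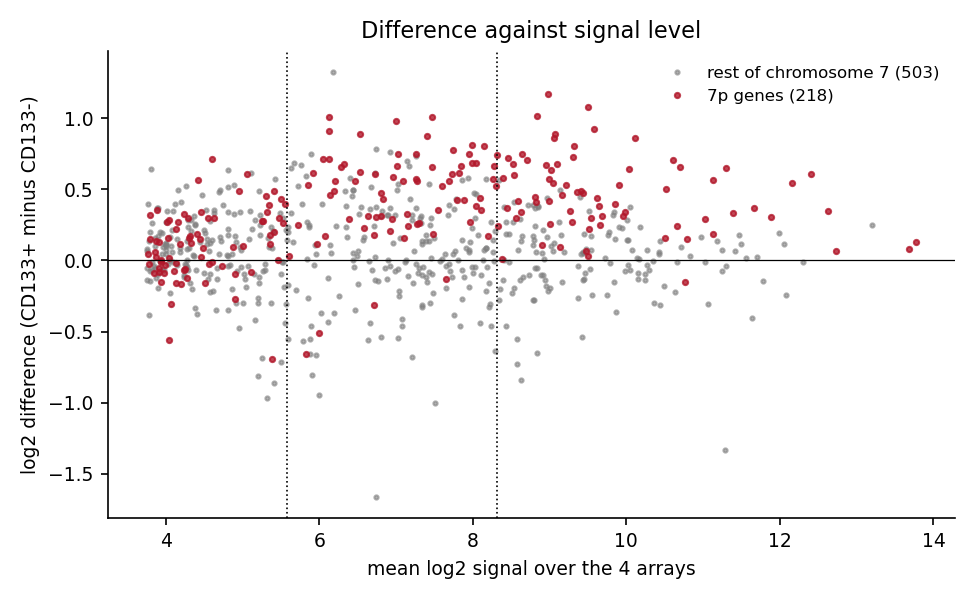
Log2 difference, CD133+ minus CD133-, against mean log2 signal over the 4 arrays for the 7p genes and the rest of chromosome 7, with dotted lines between the 3 signal classes (5.58 and 8.31). To the right of the first dotted line nearly all 7p points lie above 0, while the rest of chromosome 7 is spread around 0.

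The 37 members that do not code for protein were dimmer, with a median signal of 4.61, and had a median difference of 0.22 with 2 called higher. The 181 protein-coding members had a median signal of 7.48 and a median difference of 0.35, with 37 called higher. Several probe sets were present for 141 members, and each member is represented by its brightest. Of their 226 other probe sets above the level limit, 175 were positive (77.4%), with a median of 0.23. Of the 93 below it, 43 were positive and the median was -0.038. For the 117 members with a second probe set above the limit, the second had the sign of the brightest in 96. The median was 0.46 by the brightest and 0.26 by the second of these genes, so a gene's value depended on the probe set.

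The largest differences belonged to genes of different function. GRB10, an adaptor that binds the insulin and insulin-like growth factor receptors, had log2 signals of 9.70 and 9.41 in CD133+ cells against 8.60 and 8.18 in CD133- cells. The groups are separate by more than the spread within either, and the difference was 1.17 (SE 0.17). All 4 of its probe sets were positive. GIRGL, a long non-coding RNA, had 10.03 and 10.06 against 9.12 and 8.81, a difference of 1.08 (SE 0.12) from its 1 probe set. TNRC18, a large nuclear protein, had 9.38 and 9.31 against 8.19 and 8.47, a difference of 1.02 (SE 0.13), with 5 of 8 probe sets of this sign. HDAC9, a class II histone deacetylase, had 8.03 and 7.92 against 7.18 and 6.75, a difference of 1.01 (SE 0.18), with 3 of 5 probe sets of this sign. In GRB10, GIRGL, TNRC18 and HDAC9 both CD133+ arrays were higher than both CD133- arrays, and all were called. With the mean of all probe sets the differences were 0.76 for GRB10, 0.28 for TNRC18 and 0.21 for HDAC9, and none of these was called. HDAC9 was also not called as deposited, with centred arrays or without CD133- replicate 2.

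HYCC1, hyccin, a subunit of a complex that makes phosphatidylinositol 4-phosphate, had 6.87 and 6.38 against 5.96 and 5.28. Its difference of 1.01 (SE 0.29) was as large as that of HDAC9 but its arrays were spread wider, and it was not called. EVX1, a homeobox factor next to the HOXA cluster, was at 0.89 (SE 0.24) and LOC100128653 at 0.91 (SE 0.23), neither called. The probe set of EVX1 has the suffix that Affymetrix gives to sets whose probes can cross-hybridise, as do those of the called genes EIF3B, MIOS, COA1 and NUDCD3 and of ACTB and PPIA. The other genes among the 15 largest were all called: PLEKHA8 at 0.98, YKT6 at 0.93, ZDHHC4 at 0.89, DPY19L1 at 0.88, ZFAND2A at 0.86, FKBP14 at 0.86, LINC00525 at 0.81 and URGCP at 0.81. The sign was shared by 3 of 5 probe sets of DPY19L1, 5 of 6 of PLEKHA8 and 2 of 3 of FKBP14. With the mean of probe sets the differences were 0.14 for DPY19L1, 0.23 for PLEKHA8, 0.44 for FKBP14 and 0.59 for ZDHHC4, and these calls and those of YKT6 and URGCP were lost. PLEKHA8 lost its call without any 1 of the 4 arrays, as deposited and with centred arrays, and DPY19L1 and LINC00525 without either CD133- array and in both of these scalings. URGCP lost its call without CD133- replicate 1, and FKBP14 and ZDHHC4 with centred arrays.

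**Figure D4:**
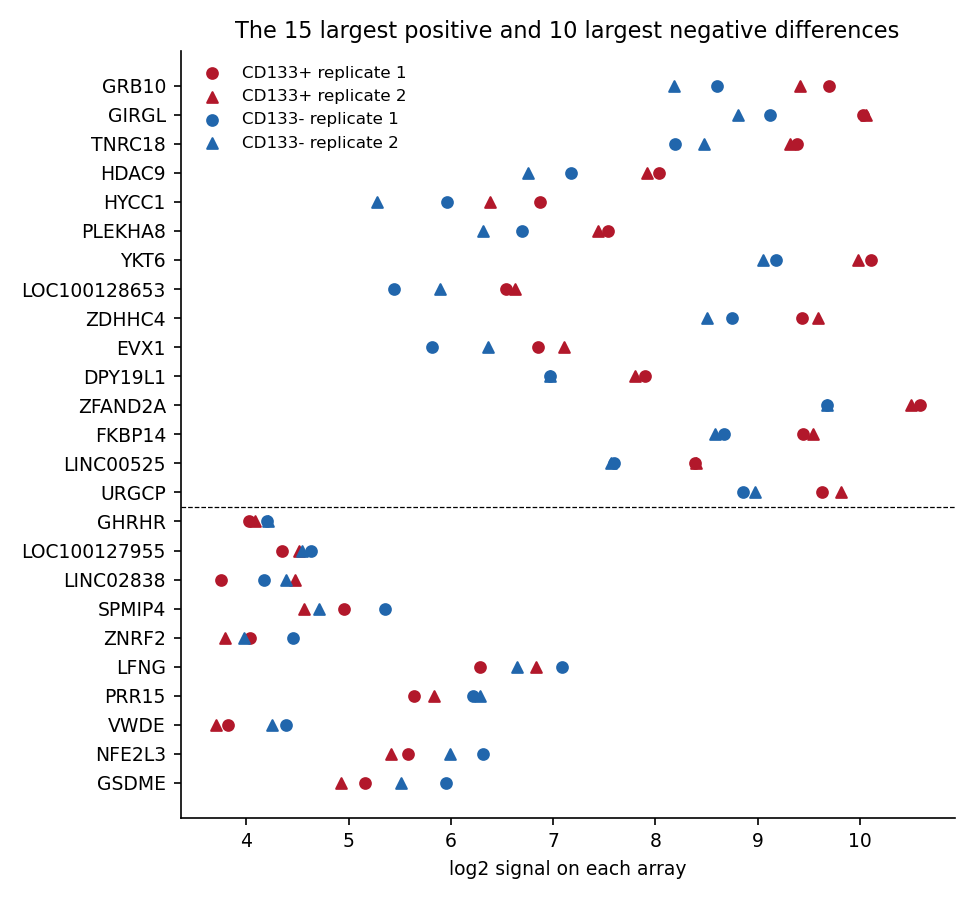
Log2 signal on each of the 4 arrays for the 7p genes with the 15 largest positive (above the dashed line) and 10 largest negative differences. Red points are CD133+ and blue points CD133- arrays, circles replicate 1 and triangles replicate 2: all 15 upper genes have both red points right of both blue points, and the lower genes lie at signals under 7.1.

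The genes were grouped by role in 10 lists, on which all counts of calls are from limma over all genes. No list had a member called lower, and 4 of the 218 genes were lower at an unadjusted p under 0.05. The count of members called higher can be read beside the 17.9% called over the arm and 1.31% over all genes. Calls also went with signal, at 0%, 11.1% and 42.5% of the dim, middle and bright 7p genes, and the lists differ in signal. All 5 measured members of protein synthesis are in the bright class, so 42.5% is the nearer share for that list. In the list of protein synthesis 4 of 5 measured members were called higher, with a median difference of 0.61. EIF3B, a scaffold subunit of the initiation factor that loads the small ribosomal subunit, had 11.64 and 11.62 in CD133+ cells against 10.99 and 10.96 in CD133- cells. The replicates lay close together, the groups do not overlap, and the difference was 0.65 (SE 0.076), with 6 of 6 probe sets positive. GARS1, the glycyl-tRNA synthetase, was at 0.61 (SE 0.13) and YAE1, an assembly factor for an iron-sulfur protein of the ribosome cycle, at 0.73 (SE 0.12). MALSU1, an assembly factor of the mitochondrial ribosome, was at 0.53 (SE 0.10), with 2 of 4 probe sets of this sign. BZW2, a translation regulator, was at 0.19 (SE 0.094) and was not called. GARS1, YAE1 and MALSU1 lost their calls without CD133- replicate 1 and with centred arrays, GARS1 and MALSU1 also without CD133- replicate 2, GARS1 was at 0.40 without CD133+ replicate 1, and with the mean of probe sets MALSU1 was at 0.16. In that setting the calls of EIF3B, GARS1 and MALSU1 were lost. GARS1 and MALSU1 also lost their calls in the values as deposited.

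In the list of the secretory pathway and endosomes 8 of 19 measured members were called higher, the median was 0.48 and all 19 were positive, of which HERPUD2 turned negative with centred arrays. YKT6, a SNARE protein of membrane fusion in the Golgi and in autophagy, had 10.11 and 9.98 against 9.18 and 9.05, a difference of 0.93 (SE 0.10). PLEKHA8, a lipid transfer protein of the trans-Golgi, had 7.54 and 7.43 against 6.70 and 6.31. FKBP14, a prolyl isomerase of the endoplasmic reticulum, had 9.44 and 9.54 against 8.67 and 8.58. In these 3 genes the gap between the groups exceeded the gap within them. TMED4, a cargo receptor of early transport, was at 0.75 (SE 0.12), GET4, which helps insert tail-anchored proteins, at 0.72 (SE 0.13) and OSBPL3, an oxysterol-binding protein homologue, at 0.68 (SE 0.11). TAX1BP1, an autophagy receptor, was at 0.57 (SE 0.097) and FKBP9, another reticulum isomerase, at 0.50 (SE 0.089). With the mean of probe sets GET4 was at 0.25, TMED4 at 0.34 and OSBPL3 at 0.39, none called, and these 3 also lost their calls without either CD133- array and in both other scalings. FKBP9 lost its call without either CD133- array and with centred arrays, and TAX1BP1 without CD133- replicate 1. STARD3NL, a protein of late endosomes, was at 0.31 (SE 0.10) and not called. CCZ1 was at 0.0021 and CCZ1B at 0.15, near-identical copies whose probes may not tell them apart.

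**Figure D5:**
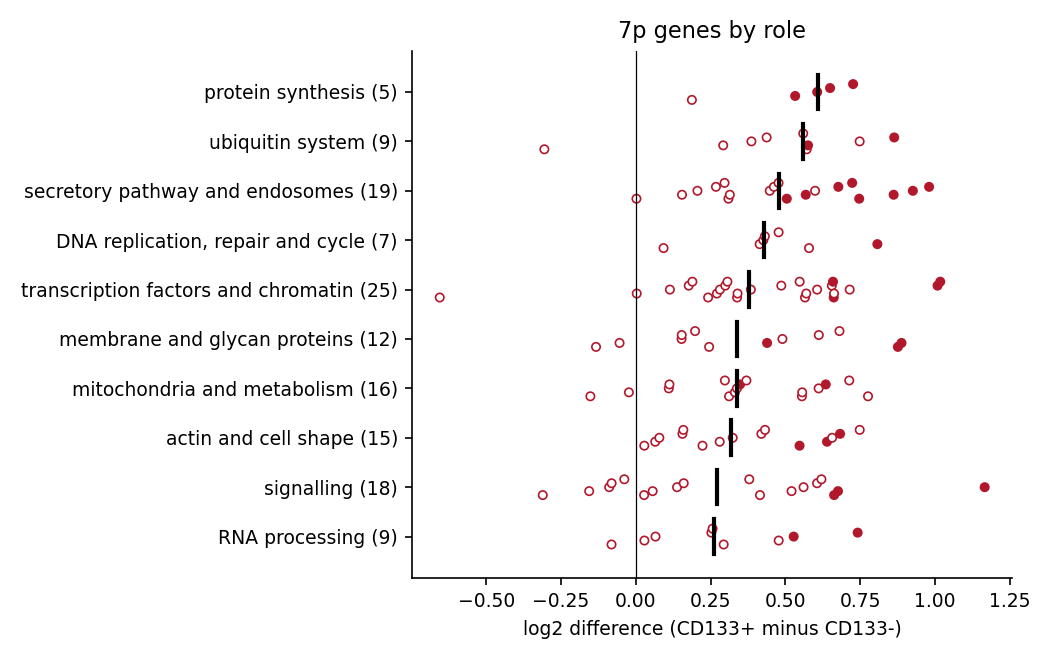
Log2 difference, CD133+ minus CD133-, of the 7p genes in each of 10 role lists, with the number of measured genes in brackets. Filled points were called higher in limma over all genes, open points were not called, and the black bar is the list's median, from 0.26 (RNA processing) to 0.61 (protein synthesis).

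Of 15 measured genes of actin and cell shape, 3 were called higher, the median was 0.32 and all 15 were positive, of which ACTB, SEPTIN7, RADIL and CYTH3 turned negative with centred arrays and CYTH3 also as deposited. RAC1, which drives actin assembly at the leading edge, had 12.40 and 12.47 in CD133+ cells against 11.88 and 11.89 in CD133- cells, a difference of 0.55 (SE 0.071), and all 4 of its probe sets were positive. RALA, a Ras-like GTPase of vesicle tethering, was at 0.64 (SE 0.09) and FSCN1, the actin-bundling fascin, at 0.68 (SE 0.13). With the mean of probe sets RAC1 was at 0.33 and RALA at 0.42, neither called. With centred arrays FSCN1 was at 0.45 and RALA at 0.52, neither called. All 3 lost their calls without CD133- replicate 1, and FSCN1 without CD133- replicate 2 and as deposited. ACTB had 13.81 and 13.62 against 13.68 and 13.60, which overlap, with a difference of 0.079 that turned to -0.001 with centred arrays. TNS3, a tensin, was at 0.16 (SE 0.091) and not called.

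Among 25 measured transcription factors and chromatin genes, 4 were called higher, the median was 0.38 and 24 were positive, of which MACC1, SP4, IKZF1 and CREB5 turned negative with centred arrays and CREB5 also as deposited. Besides HDAC9 and TNRC18 these were H2AZ2, a variant of histone H2A, with 10.95 and 11.11 against 10.37 and 10.36 (difference 0.66, SE 0.09, 4 of 4 probe sets positive), and RBAK, a zinc finger repressor that binds the retinoblastoma protein, at 0.66 (SE 0.14). RBAK was at 0.19 with the mean of probe sets and 0.43 with centred arrays and lost its call in both, and H2AZ2 lost its call with the mean of probe sets. Both lost it without CD133- replicate 1, and RBAK without CD133- replicate 2 and as deposited. ETV1, an ETS factor, had 7.70 and 7.91 against 7.29 and 7.01, and its difference of 0.66 (SE 0.17) was not called. That difference was 0.40 with centred arrays and 0.29 with the mean of probe sets. CDCA7L, a MYC-interacting protein, was at 0.30 and AHR, the aryl hydrocarbon receptor, at 0.24 (SE 0.12). MACC1, a regulator of MET known from colon cancer metastasis, had 7.82 and 7.33 against 7.50 and 7.27, which overlap. Its difference of 0.19 (SE 0.20) turned to -0.064 with centred arrays.

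In the list of mitochondria and metabolism 2 of 16 measured members were called higher, the median was 0.34 and 14 were positive, of which HIBADH turned negative with centred arrays. CYCS, the electron carrier that also triggers caspase activation, had 12.75 and 12.85 against 12.46 and 12.44, a difference of 0.35 (SE 0.071), with 2 of 3 probe sets of this sign. COA1, an assembly factor of the respiratory chain, was at 0.64 (SE 0.12). COXFA4, a subunit of cytochrome c oxidase that is in none of the lists, was called as well, at 0.37 (SE 0.078). COXFA4 formerly carried a symbol starting NDUF, a prefix that the rule leaves out, and is counted here under its present name. With the mean of probe sets COA1 was at 0.15. CYCS, COA1 and COXFA4 lost their calls in that setting, in both other scalings and without either CD133- array. GGCT, an enzyme of the gamma-glutamyl cycle, was at 0.33 (SE 0.10) and not called, and NT5C3A, a pyrimidine nucleotidase, at -0.15 (SE 0.11) with overlapping arrays. DDC, aromatic amino acid decarboxylase, had the largest difference of the list, 0.78, and was not called.

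Of 9 measured genes of RNA processing 2 were called higher, the median was 0.26 and 8 were positive, of which INTS1, IGF2BP3 and HNRNPA2B1 turned negative with centred arrays and IGF2BP3 also as deposited. The called genes of this list were NUP42, a nucleoporin of messenger RNA export, at 0.74 (SE 0.14), and RP9, a nuclear protein linked to splicing, at 0.53 (SE 0.11). Both lost their calls without CD133- replicate 1 and in both other scalings, and RP9 without CD133- replicate 2, without the level filter and with the mean of probe sets. TRA2A, a splicing regulator, was at 0.25 (SE 0.10) with 3 of 5 probe sets of this sign, and LSM5, of the ring that binds U-rich RNA ends, at 0.29 (SE 0.10). Of 9 genes of the ubiquitin system 2 were called, ZFAND2A and KBTBD2, and the median was 0.56. ZFAND2A, a proteasome-associated stress protein, had 10.58 and 10.50 against 9.68 and 9.67, a difference of 0.86 (SE 0.09) from its 1 probe set. KBTBD2, a substrate adaptor of cullin 3, was at 0.58 (SE 0.11), or 0.36 and not called with the mean of probe sets, and lost its call in both other scalings and without either CD133- array. USP42, a deubiquitinating enzyme, was at 0.44 (SE 0.16). Of 7 genes of DNA replication, repair and cycle only URGCP was called, at 0.81 (SE 0.11), while all 7 were positive with a median of 0.43. POLD2, a subunit of DNA polymerase delta, was at 0.48 (SE 0.14). FIGNL1, an ATPase of recombination, was at 0.093, which turned to -0.054 with centred arrays. CDK13, a kinase of RNA polymerase II, was at 0.58 (SE 0.13), with 5 of 7 probe sets of this sign. It was at 0.38 with centred arrays and 0.19 with the mean of probe sets.

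Signalling genes had a median of 0.27, with 3 of 18 called higher and 13 positive. The called genes were GRB10, STK17A, a death-associated kinase, and NUDCD3, a co-chaperone of dynein assembly. STK17A had 8.86 on both CD133+ arrays against 8.19 and 8.18 in CD133- cells, a difference of 0.68 (SE 0.12). With the mean of probe sets STK17A was at 0.25 and NUDCD3 at 0.33, and both lost their calls there, in both other scalings and without either CD133- array. SKAP2, an adaptor of Src-family kinases, was at 0.38 (SE 0.094) and PDGFA, a growth factor chain, at 0.42 (SE 0.15), with 1 of 2 probe sets of this sign. IL6 had 4.22 and 4.54 against 4.09 and 4.35, overlapping and near the lowest level tested. Of 12 membrane and glycan genes 3 were called higher, 10 were positive and the median was 0.34. These were ZDHHC4, a palmitoyltransferase, with 9.43 and 9.59 against 8.75 and 8.50, DPY19L1, a C-mannosyltransferase, with 7.89 and 7.80 against 6.97 on both CD133- arrays, and LANCL2, at 0.44. LANCL2 lost its call in both other scalings, without the level filter, with the mean of probe sets, in the robust fit and without any 1 of the 4 arrays. TSPAN13, a tetraspanin, was at 0.25 and VOPP1 at 0.15, neither called. The remaining 83 members were in no list, with a median of 0.26 and 7 called higher: GIRGL, LINC00525, EEPD1, INTS15, MIOS, MPLKIP and COXFA4. EEPD1, INTS15 and MIOS were named after their values were seen, and lost their calls without CD133- replicate 1, in both other scalings and with the mean of probe sets, EEPD1 and MIOS also without CD133- replicate 2.

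By their brightest probe sets the 3 brightest members had small differences. PPIA, cyclophilin A, had 13.83 and 13.85 against 13.75 and 13.68, a difference of 0.13 (SE 0.064), while ACTB was at 0.079 and HNRNPA2B1, a nuclear RNA-binding protein, at 0.066 (SE 0.069), both turning negative with centred arrays. None of these 3 was called. With the mean of probe sets PPIA was at 0.25, ACTB at 0.12 and HNRNPA2B1 at 0.35, none called. The next in signal were CYCS at 0.35, GARS1 at 0.61 and RAC1 at 0.55, called with the exceptions given above.

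Neighbouring genes that start close together on opposite strands were compared. Of the 177 members with a promoter window in the RefSeq table, 10 pairs had starts within 1000 bases of each other, and both genes were positive in 7. The brightest pair was HNRNPA2B1 and CBX3, with starts 697 bases apart. CBX3, a heterochromatin protein that binds methylated histone H3, had 12.19 and 11.88 in CD133+ cells against 11.78 and 11.68 in CD133- cells, a difference of 0.31 (SE 0.11), with 2 of 4 probe sets of this sign. Its partner's difference was 0.066, with 4 of 4 probe sets of this sign, and turned to -0.019 with centred arrays. Neither was called. With the mean of probe sets HNRNPA2B1 was at 0.35 and CBX3 at 0.14, so their order depended on the probe sets. MPLKIP and SUGCT start 383 bases apart and both had a difference of 0.71. MPLKIP, a nuclear protein mutated in a form of trichothiodystrophy, had 11.04 and 10.90 against 10.28 and 10.24 and was called. SUGCT, a mitochondrial CoA transferase, had 5.04 and 4.89 against 4.36 and 4.13 and was not called. ANKMY2 and BZW2 start 427 bases apart and had 0.30 and 0.19. UBE2D4 and URGCP start 290 bases apart and had 0.56 and 0.81, or 0.30 and 0.61 with the mean of probe sets. In the pair of ZFAND2A and ZFAND2A-DT the coding gene was at 0.86 and the dim transcript opposite it at -0.057.

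Promoter windows are given for HNRNPA2B1 and CBX3, for MPLKIP and SUGCT, and for GRB10, the member with the largest difference. By their brightest probe sets the first pair had unlike differences and the second pair like ones. They are RefSeq windows on GRCh38.p14 of 250 bases before to 50 after the start, on the gene's own strand, 5′ to 3′. Capitals mark matches, on either strand, to 3 motifs: TATAAA, named a TATA box here, CCAAT, and GGGCGG, named a GC box. These are chr7:26200697-26200996 (minus strand) for HNRNPA2B1, chr7:26201193-26201492 (plus) for CBX3, chr7:40134573-40134872 (minus) for MPLKIP, chr7:40134755-40135054 (plus) for SUGCT and chr7:50793404-50793703 (minus) for GRB10.
HNRNPA2B1: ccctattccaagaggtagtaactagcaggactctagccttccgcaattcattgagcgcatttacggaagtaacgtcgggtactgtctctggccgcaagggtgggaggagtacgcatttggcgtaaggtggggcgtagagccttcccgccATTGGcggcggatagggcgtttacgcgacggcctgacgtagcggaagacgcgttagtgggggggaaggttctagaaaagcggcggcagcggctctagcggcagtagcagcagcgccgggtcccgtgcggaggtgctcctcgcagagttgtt
CBX3: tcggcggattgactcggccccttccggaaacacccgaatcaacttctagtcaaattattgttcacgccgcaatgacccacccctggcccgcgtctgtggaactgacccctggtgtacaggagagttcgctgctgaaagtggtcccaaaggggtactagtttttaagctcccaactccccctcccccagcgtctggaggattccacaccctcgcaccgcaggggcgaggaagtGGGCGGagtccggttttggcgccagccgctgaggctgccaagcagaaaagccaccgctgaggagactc
MPLKIP: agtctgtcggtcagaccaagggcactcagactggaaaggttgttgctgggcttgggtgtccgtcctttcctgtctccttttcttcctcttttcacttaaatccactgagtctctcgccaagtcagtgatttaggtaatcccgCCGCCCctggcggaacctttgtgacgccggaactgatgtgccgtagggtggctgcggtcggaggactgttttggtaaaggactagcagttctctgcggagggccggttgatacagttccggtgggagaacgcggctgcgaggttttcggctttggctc
SUGCT: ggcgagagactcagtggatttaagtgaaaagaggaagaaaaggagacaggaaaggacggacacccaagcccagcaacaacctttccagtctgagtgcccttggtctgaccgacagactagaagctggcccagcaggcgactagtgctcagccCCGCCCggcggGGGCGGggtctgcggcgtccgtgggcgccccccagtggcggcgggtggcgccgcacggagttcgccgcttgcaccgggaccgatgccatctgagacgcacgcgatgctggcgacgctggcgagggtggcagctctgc
GRB10: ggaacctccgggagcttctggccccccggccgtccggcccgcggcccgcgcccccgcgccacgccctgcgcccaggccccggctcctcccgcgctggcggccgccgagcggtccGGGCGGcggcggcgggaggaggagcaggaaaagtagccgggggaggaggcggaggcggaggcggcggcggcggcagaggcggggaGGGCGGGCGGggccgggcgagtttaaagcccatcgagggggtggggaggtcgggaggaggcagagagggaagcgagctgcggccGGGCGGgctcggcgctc

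The windows of MPLKIP and SUGCT share 118 bases, read on opposite strands, and those of HNRNPA2B1 and CBX3 share 0. The window of GRB10 held 4 GC boxes and 44 CG pairs, that of SUGCT 2 and 27, and those of MPLKIP and CBX3 1 GC box each, with 18 and 19 CG pairs. HNRNPA2B1 had 1 CCAAT box, no GC box and 29 CG pairs. No TATA box lay in any of the 5 windows. Over all 177 windows of 7p genes, 62.7% held a GC box, 32.8% a CCAAT box and 7.34% a TATA box. The shares were 64.5%, 35.8% and 6.91% over 12499 windows of all genes tested, and 44.6%, 35.7% and 12% over all 27305 promoter windows of the table. Of the 29 windows of 7p genes called higher, 62.1% held a GC box, 24.1% a CCAAT box and 6.9% a TATA box. The median number of CG pairs was 27 in the 7p windows, in those of called genes too, and 24 in the windows of all genes tested. The 7p windows thus lay near those of the other genes tested in these letters.

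A negative difference was measured for 30 of the 218 genes. The lowest was GSDME, gasdermin E, a pore-forming protein of lytic cell death, with 5.16 and 4.92 in CD133+ cells against 5.95 and 5.51 in CD133- cells. Its difference was -0.69 (SE 0.24) from 1 probe set. NFE2L3, a stress-related bZIP factor that neighbours HNRNPA2B1, had 5.58 and 5.41 against 6.31 and 5.99, a difference of -0.66 (SE 0.22) in which both of its probe sets shared the sign. VWDE, a secreted protein with von Willebrand factor and EGF domains, was at -0.56 (SE 0.16) from signals of 4.38 and lower. PRR15, a small proline-rich protein, had 5.64 and 5.83 against 6.21 and 6.29, a difference of -0.51 (SE 0.20). In GSDME, NFE2L3, VWDE and PRR15 both CD133+ arrays lay below both CD133- arrays, and none was called (limma adjusted p between 0.107 and 0.209). GSDME at 24.70 Mb and NFE2L3 at 26.15 Mb are separated by CYCS at 25.12 Mb, which was called higher.

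The other genes among the 10 lowest had signals that overlapped between groups or lay near the lowest level. LFNG, a glycosyltransferase of Notch receptors, was at -0.31 (SE 0.25) with overlapping arrays, as were ZNRF2, a ubiquitin ligase, at -0.31, SPMIP4 at -0.27 and LINC02838 at -0.16. Only 1 of 2 probe sets of LFNG had this sign. LFNG was at -0.56 with centred arrays and -0.023 with the mean of probe sets. LOC100127955 and GHRHR, the receptor of growth hormone-releasing hormone, were both at -0.16 with signals under 4.7.

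Genes of the arm that the rule leaves out by name had a similar median, 0.35 over 22 genes. Of them 7 were called higher (31.8%), a larger share than the 17.9% of members and 1.31% of all genes. None was called lower, where 2.34% of all genes were (limma, 0 lower at an unadjusted p under 0.05 as well). Their median signal was 8.13, against 7.06 for the members. AGR2, a disulfide isomerase of secretory cells, was at 2.09 and MAD1L1, a spindle checkpoint gene, at 1.71, both larger than any member. With all 22 the arm's median over 240 genes stayed at 0.33 and 46 were called higher (19.2%).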

How the data were processed

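The deposited values are log2 probe-set signals of 4 Affymetrix arrays. Per the submitters' processing notes the authors used Affymetrix Expression Console. Its version, background correction, normalization and summarisation are not given in the sources used here. Precision is limited by the number of arrays. Deposited medians spread by 0.144, above a limit of 0.1, so the values were quantile normalized, which removes any difference in the overall distribution. Before this, 62 control probe sets were removed from 54675. Of the others 41091 name 1 gene in the platform annotation and 1801 name several, which were left unnamed. The brightest probe set stood for each gene, and 19735 of 19777 genes matched the RefSeq table of GRCh38.p14, from which positions and promoters were taken. The dimmest 20% of genes were left out, with a threshold of 3.753. CD133+ was compared with CD133- in limma 3.58.1 (R 4.3.3; lmFit and eBayes with a variance trend), with Benjamini-Hochberg adjustment over 15821 genes and a threshold of 0.05. The procedure was tested on simulated data. Tables and plots were made with Python 3.11.15, pandas 2.3.3, numpy 2.4.6 and matplotlib 3.10.9. With 2 arrays against 2 the smallest exact permutation p for a single value is 0.333, so none is given. The members and the 10 role lists (167 genes) were chosen with earlier results of these data known. The genes named were the 15 largest positive and 10 largest negative differences, the 3 brightest of each list, the 4 brightest opposite-strand pairs, the genes at the limits and 12 fixed genes. Other called genes were named after their values were seen. Alternatives changed the scaling, the level filter, the choice of probe set, the variance model, the threshold, the replicate block, the members and the arrays.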

Additional observations from a re-analysis of the deposited data

How the results depend on the processing

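The number of 7p genes called higher, 39, moved to 16 in the values as deposited (0.556% of all genes, from 1.31%). It was 11 with centred arrays (0.329%) and 10, of 210 members then tested, with all probe sets of a gene averaged (0.468%). In limma without the variance trend it was 0 (0.0253% of all genes), with 90 at an unadjusted p under 0.05. At a limma adjusted p under 0.01 it was 4 (0.0948% of all genes). Leaving out 1 array gave 10 to 39 called higher, a median of 0.34 to 0.39 and 181 to 186 positive genes, and the low counts came without CD133- replicate 1 (10, with 0.284% of all genes) and CD133- replicate 2 (20, with 0.815%). The median, 0.33, moved to 0.22 with centred arrays, 0.25 with the mean of probe sets and 0.48 with the level filter at the median of all genes. With PRSS3P2 counted in, which was tried after the data were seen, 1 gene was called lower (log2 difference -0.96). With the replicate number as a block, 99 were called higher and 4 lower, while all genes tested gave 1566 higher and 1464 lower. Same-numbered arrays deviated together (r = 0.43 across 15821 genes, which are not independent replicates), but with 2 arrays per clone and no label that ties the numbers, they are not taken as pairs. Without the level filter, with a robust fit and with the genes left out by name, 37 of 276, 40 of 218 and 46 of 240 were called higher. These are 13.4%, 18.3% and 19.2%. Of all genes 0.930%, 1.40% and 1.31% were called higher in these settings. Of the 23 named genes that were called, 9 lost the call in the values as deposited, 12 with centred arrays, 17 with the mean of probe sets, 23 without the variance trend, 13 and 10 when CD133- replicate 1 or 2 was left out, 3 and 5 when CD133+ replicate 1 or 2 was, and 1 each without the level filter and in the robust fit. Of these genes 0 changed sign in any of these settings. No cause was tested for these changes. Signal over background was not measured.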

Other observations

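Opposite-strand pairs not described above were mostly of a coding gene and a dim transcript. ICA1, an islet autoantigen gene, was at 0.69 and ICA1-AS1 at 0.40, with starts 58 bases apart. ANLN, the cytokinesis protein anillin, was at 0.42 and MATCAP2 at 0.26. SEPTIN7 was at 0.065, turning to -0.076 with centred arrays, and SEPTIN7-DT at 0.18. AHR was at 0.24 and LOC101927609 at -0.12. IL6 was at 0.16 and IL6-AS1 at -0.025, which turned to 0.062 in the values as deposited, both genes near the lowest level tested. None of these was called.

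Among genes of the arm left out by name, POLM, a DNA polymerase of end joining, had 7.99 and 8.24 in CD133+ cells against 7.11 and 7.19 in CD133- cells. EIF2AK1, the heme-regulated eIF2 kinase, had 10.97 and 10.92 against 10.11 and 10.13. Both were called higher. EGFR had 6.32 and 7.94 in CD133+ cells against 6.84 and 7.66 in CD133- cells, a spread within each group that is wider than the difference between them.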
